A study of Mus musculus with 4 samples.

Results

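Matricellular proteins are secreted proteins that sit in the extracellular matrix and modulate how cells attach to it, rather than forming its load-bearing fibres. The 10 genes described here were the thrombospondins Thbs1 and Thbs2, the adhesion-modulating proteins Tnc, Sparc, Postn and Spp1, the provisional matrix components Fn1 and Vcan, and the follistatin-like factors Fstl1 and Fstl3. Members were the probe sets (the groups of short probes that each report 1 transcript) whose platform annotation gave a single symbol equal to one of these names. This found 24 probe sets for 9 genes, among 45101 probe sets and 18194 named genes on the array, and 8 of the 24 belonged to Vcan. Spp1 had no probe set named here and is not analysed here. The genes were chosen by their signals in earlier results of the same arrays, that is, on the comparison of the stem cell lines with the hepatocytic cells and of the stem cell lines with each other. Their values in those comparisons are therefore a description. Where the fit across all genes called a member, this is stated beside the share of all genes called and supports nothing.

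The RNA came from mouse liver cell lines, each in bulk, hybridised to 4 Affymetrix Mouse430_2 arrays. Resident liver stem cells (RLSC) were represented by 2 lines with 1 array each. MetE14/3 is 1 clone (B2) of liver cells from an embryo carrying the cyto-Met transgene, a truncated Met receptor, taken at 14 days post coitum. WTE14/1 came from a wild-type liver, also at 14 days post coitum. The comparison group was MMH-D3, a differentiated hepatocytic line measured on 2 arrays, whose titles number them 1 and 2. Both groups started from primary liver cultures on collagen I in a medium with epidermal growth factor, insulin-like growth factor II and insulin, according to the labels. RLSC colonies of palmate shape were then expanded in basal medium with serum and frozen after about 50 generations, a step the MMH-D3 labels do not give, so line and culture history cannot be told apart. The source name of WTE14/1 reads WT E14/3, and the title was followed. Whether the MMH-D3 arrays hold RNA of separate cultures is not given by the labels, and the errors may be technical in part.

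As background, thrombospondins bind cells through CD47, CD36 and integrins, and thrombospondin 1 can release TGF-beta from its latent form. Tenascin C, SPARC and periostin are typically made by activated stromal cells during development and wound repair, and in injured liver by hepatic stellate cells. Fibronectin and versican form the provisional matrix on which cells migrate. Follistatin-like 3 binds and blocks activins, whereas follistatin-like 1 is a secreted glycoprotein that shares the follistatin domain and has been linked to BMP signalling. In bulk RNA, fewer cells that express a gene and less RNA per cell cannot be told apart.

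Promoter sequences are shown for 4 members whose signals form contrasting patterns on these arrays. Fstl1 and Tnc had high signals in both RLSC lines, Fstl3 in MetE14/3 alone and Vcan in WTE14/1 alone. Each is the 250 bases before an annotated transcript start, read 5′ to 3′ on the gene's strand from RefSeq, build GRCm38.p6. The TATA box motif is in capitals where it was found. The windows are chr16:37776805-37777054 (plus strand) for Fstl1, chr4:64047016-64047265 (minus strand) for the upstream of the Tnc starts, chr10:79777024-79777273 (plus strand) for Fstl3 and chr13:89742513-89742762 (minus strand) for Vcan.
Fstl1: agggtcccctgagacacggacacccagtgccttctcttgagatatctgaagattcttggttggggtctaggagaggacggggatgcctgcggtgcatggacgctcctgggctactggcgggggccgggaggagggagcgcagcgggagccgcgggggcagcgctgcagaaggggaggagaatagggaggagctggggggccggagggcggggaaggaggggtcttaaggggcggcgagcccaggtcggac
Tnc: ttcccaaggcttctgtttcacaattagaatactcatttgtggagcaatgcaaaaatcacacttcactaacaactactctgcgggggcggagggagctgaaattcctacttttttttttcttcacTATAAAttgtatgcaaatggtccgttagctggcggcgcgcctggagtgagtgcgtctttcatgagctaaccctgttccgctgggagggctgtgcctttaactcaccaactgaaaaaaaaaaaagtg
Fstl3: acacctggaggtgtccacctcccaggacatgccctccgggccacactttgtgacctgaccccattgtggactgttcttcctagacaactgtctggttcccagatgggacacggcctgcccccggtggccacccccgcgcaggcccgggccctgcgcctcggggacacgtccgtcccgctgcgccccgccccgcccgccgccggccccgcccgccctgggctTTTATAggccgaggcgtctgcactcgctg
Vcan: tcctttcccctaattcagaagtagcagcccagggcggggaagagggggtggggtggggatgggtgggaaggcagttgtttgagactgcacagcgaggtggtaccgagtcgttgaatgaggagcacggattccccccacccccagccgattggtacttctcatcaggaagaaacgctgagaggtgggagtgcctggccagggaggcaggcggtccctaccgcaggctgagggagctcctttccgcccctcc
RefSeq promoters matched 8 of the 10 genes, in 11 windows, of which a pair at Tnc overlap. No window was listed for Thbs1 or Fn1. Both strands of each window were searched for 3 motifs. The letters of the TATA box motif (TATAAA) were present in 6 of the 11 windows and in 12.4% of all 32851 windows of this length. The overlapping Tnc windows share 1 match, which is counted in each. Matches at any position were counted, and they began 26 bases before the start in Postn, 126 in Thbs2 and 211 in Spp1. Whether any match acts as a TATA box was not tested, and no excess is read from the count. In Fstl3, as in Thbs2, the match lay on the opposite strand. It began 29 bases before the start in Fstl3, and in Tnc 126 bases before the start printed here. The AP-1 motif (TGANTCA) was in none of the 11 windows, against 6.75% of all windows. The motif of TEAD factors (GGAATG) was in none either, against 12.6% of all windows. The printed Fstl1 and Vcan windows held none of the motifs, although they differ in their array pattern.

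All 9 measured genes had at least 1 probe set past the filter on dim signals, a mean at or above the 40th percentile, which corresponds to a signal of about 11.7. Of the 24 probe sets, 15 passed and 9 did not, and 6 of those 9 belonged to Vcan. On the quantile-normalised log2(signal + 4) scale, 5 genes (Thbs1, Tnc, Sparc, Fn1 and Fstl1) lay above both MMH-D3 arrays in both RLSC lines, against 20.8% of all 12598 genes tested. In the other 4 the groups overlapped, against 57.9% of all genes, and none of the 9 lay below both MMH-D3 arrays, against 21.3%. Of the 24 probe sets, 13 lay above both MMH-D3 arrays, against 19.2% of all probe sets. Fn1, Fstl1, Thbs1 and Tnc were called higher in RLSC by limma at an adjusted p under 0.05, and no member lower, while 0.397% of all genes were called higher, 0.516% lower and 0.913% in either direction. Because this contrast chose the genes, nothing is read from these counts. The median difference, RLSC minus MMH-D3, was 2.39 over the 9 genes and 0.03 over all genes.

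**Figure D1:**
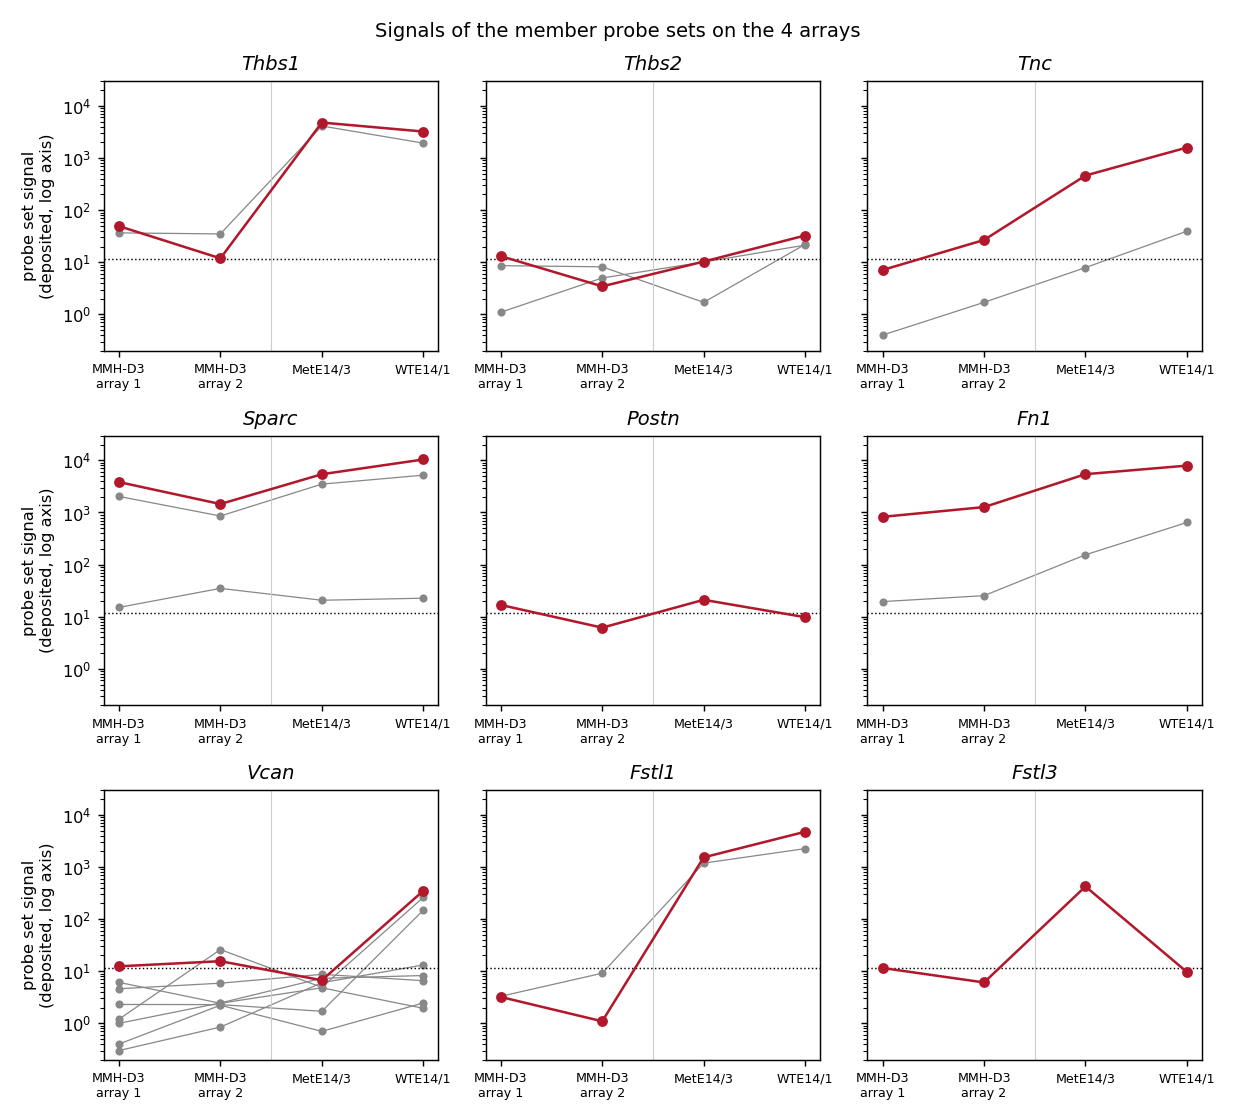
Deposited signal (log axis) of each of the 24 probe sets on the 4 arrays, 1 panel per gene; the red line is the probe set that represents the gene, grey lines are its other probe sets, lines join 1 probe set's values, and the dotted line is the filter level of about 11.7. Thbs1, Tnc, Fn1 and Fstl1 are higher in both RLSC lines, Fstl3 is raised in MetE14/3 alone (421.9) and Vcan in WTE14/1 alone (347.6).

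Arrays fell into pairs that the labels do not describe. The 24 poly-A control probe sets, which report RNA added before labelling, were 10.6-fold higher (median; range 5.75 to 26.1) on MetE14/3 and MMH-D3 array 1 than on WTE14/1 and MMH-D3 array 2. The 18 hybridization control probe sets differed 0.878-fold. Each pair held 1 array of each group, so differences within pairs are given beside the overall ones. The RLSC lines lie in different pairs, so line and pair cannot be told apart. Hepatocyte markers were lower in both RLSC lines than on both MMH-D3 arrays in 6 of 6 genes named here, with summed signals of 369 and 167 against 5493 and 9793. On the MMH-D3 arrays, albumin (Alb) read 44.7 and 440.5, Apoa1 44.6 and 1951, and Ttr 19.8 and 144.0. Apob read 2879 and 4647 there, Hnf4a 1049 and 1687, and Afp 1456.5 and 923.0. Of 7 fibroblast markers, summed signals were 71.0 and 226.0 in MetE14/3 and WTE14/1 against 71.4 and 133.6 in MMH-D3, and the fibrillar collagen Col1a1 read 8 and 18.7 in the RLSC lines. Col3a1 read 8.40 in MetE14/3 and 120.2 in WTE14/1 against 5.80 and 15.1, high in the same line as Vcan, and Col1a2 read 30.3 and 42.5 against 13.9 and 21.98. The 7 stellate markers summed to 312.1 and 177.9 against 54.6 and 125.8, and Pdgfrb alone read 248.1 and 65.8 in the RLSC lines. The 7 macrophage markers summed to 123.2 and 180.4 against 117.7 and 196.1. The 4 platelet markers summed to 103.8 and 158.1 against 72.5 and 84.8. The 6 endothelial markers summed to 59.2 and 77.5 against 33.2 and 104.4, with Pecam1 and Cdh5 dim on every array. Mesothelial markers lay below both MMH-D3 arrays in 4 of 4 tested genes, with sums of 11423 and 6300 against 18920 and 25949, and Wt1 was called lower (-4.30, limma adjusted p = 0.0366). The keratin Krt8 read 8447 and 4159 against 12561 and 14356, and Msln 2963 and 2107 against 6073 and 11154.5. These sums thus mostly reflect Krt8 and Msln. Cholangiocyte markers lay below both in 3 of 4, with sums of 8918 and 4201 against 13389 and 16370, and Sox9 was the exception. The single hepatocyte markers, Col1a1, Col3a1, Col1a2, Pdgfrb, Pecam1, Cdh5, Msln, Krt8 and Sox9 are named after their values were seen. Dim marker signals, such as 0.2 for Pdgfrb on MMH-D3 array 1, do not show whether the cells that these lists mark were present. The part of such cells in the results was not tested.

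Thrombospondin 1 (Thbs1), a secreted trimer that binds CD47 and can activate latent TGF-beta, was high in both RLSC lines and low in MMH-D3. The probe set that represents it gave a signal of 4791 with MetE14/3 and 3222 with WTE14/1, while MMH-D3 arrays 1 and 2 read 49.3 and 11.9. The other read 4114 and 1932 in the RLSC lines and 36.6 and 35.0 in MMH-D3. In both, the lower RLSC line was far above the higher MMH-D3 array, by 65.4-fold and 52.8-fold in signal. The difference was 7.01 (SE 0.74) on the log2(signal + 4) scale, and 6.22 and 7.80 within the pairs that hold MetE14/3 and WTE14/1.

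Thrombospondin 2 (Thbs2), the related trimer that lacks the TGF-beta-activating sequence, gave dim signals throughout. Its representative probe set read 10.3 in MetE14/3, 32.6 in WTE14/1, and 13.1 and 3.45 in MMH-D3. The groups overlapped, and the difference was 0.79 (SE 0.75), with -0.42 and 2.00 within the pairs. Only 1 of its 3 probe sets passed the filter, and the highest signal of any of them on any array was that 32.6. In both other probe sets WTE14/1 was again the highest array, at 21.3 and 22.01.

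Tenascin C (Tnc), a hexameric glycoprotein that weakens cell adhesion to fibronectin, was also high in both RLSC lines. Its representative probe set read 461.6 in MetE14/3 and 1588 in WTE14/1, and 7.10 and 26.8 in MMH-D3. Both RLSC lines were above both MMH-D3 arrays, with WTE14/1 3.44-fold above MetE14/3 in signal. The difference was 5.49 (SE 0.76), and 5.16 and 5.83 within the pairs. The dimmer Tnc probe set, which did not pass the filter, kept the same order of the 4 arrays, at 7.90 and 39.4 in RLSC and 0.40 and 1.70 in MMH-D3.

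SPARC, a collagen-binding counter-adhesive protein, had high signals in both groups. Its representative Sparc probe set read 5419 in MetE14/3 and 10400 in WTE14/1, while MMH-D3 read 3833 and 1452. The groups did not overlap, but the gap between MetE14/3 and MMH-D3 array 1 was 1.41-fold in signal, smaller than the 2.64-fold gap between the MMH-D3 arrays. The difference was 1.66 (SE 0.49), with 0.63 within the MetE14/3 pair and 2.69 within the WTE14/1 pair. A second probe set gave 3503 and 5200 against 2032 and 856.0, in the same order of arrays. The last of its 3 probe sets overlapped between groups, at 20.7 and 22.7 against 15.1 and 35.0.

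Periostin (Postn), an integrin ligand of fibroblasts and periosteum, was dim on every array. Its 1 probe set read 21.1 in MetE14/3, 9.80 in WTE14/1, and 16.8 and 6.17 in MMH-D3. The groups overlapped and the difference was 0.17 (SE 0.76), with 0.10 and 0.25 within the pairs. The order of the arrays followed the control pairs, each array of the MetE14/3 pair being above both of the other pair.

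Fibronectin (Fn1), the dimeric glycoprotein of the provisional matrix, was high in every array and higher in RLSC. Its representative probe set read 5433 in MetE14/3 and 7927 in WTE14/1, while MMH-D3 read 825.4 and 1269. The groups were separate, and the lower RLSC line was 4.28-fold above the higher MMH-D3 array in signal. The difference of 2.67 had the smallest SE of the 9 genes (0.35), and was 2.78 and 2.55 within the pairs. The second Fn1 probe set separated the groups too, at 154.3 and 643.0 against 19.5 and 25.4. Between the RLSC lines that probe set differed 4.17-fold and the first 1.46-fold, so the gap between the lines depends on the probe set.

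Versican (Vcan), the large proteoglycan that binds hyaluronan, was raised in WTE14/1 only. Its representative probe set read 347.6 in WTE14/1 and 6.70 in MetE14/3, against 12.4 and 15.5 in MMH-D3. MetE14/3 thus lay below both MMH-D3 arrays and WTE14/1 above both. The difference was 1.69 (SE 1.49), and the pairs gave opposite signs, -0.82 with MetE14/3 and 4.20 with WTE14/1. Another 2 of the 8 probe sets were also highest in WTE14/1, with 259.8 and 147.6 in WTE14/1 against 4.90 and 1.70 in MetE14/3. The remaining 5 stayed below the filter level on every array after normalisation, so they bear on neither line. The probe set at 259.8 in WTE14/1, which also passed the filter, read 1.20 on MMH-D3 array 1 and 26.0 on array 2. There MetE14/3 (4.90) lay between the MMH-D3 arrays and above the array of its pair. The opposite signs, and the place of MetE14/3 below both MMH-D3 arrays, thus depend on the probe set.

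Follistatin-like 1 (Fstl1), the secreted glycoprotein of mesenchymal cells, had high signals in both RLSC lines and dim ones in MMH-D3. Its representative probe set read 1526 in MetE14/3 and 4731 in WTE14/1, while MMH-D3 read 3.20 and 1.09. The second read 1183 and 2246 against 3.30 and 9.14. All MMH-D3 signals of both probe sets lay below the filter level of about 11.7, whereas the RLSC signals lay between the 93.7 and 98.8 percentiles of their arrays. The difference was 8.71 (SE 0.67), with 7.54 and 9.88 within the pairs. Since the MMH-D3 signals are so dim, its size depends on the added constant, and for the same probe set it was 9.69 with 1 and 7.19 with 16 in place of 4. With a constant of 1 the second probe set had the higher mean and stood for the gene, at 7.87, and without WTE14/1 it did so at 6.94.

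Follistatin-like 3 (Fstl3), an activin antagonist, was raised in MetE14/3 only. Its 1 probe set read 421.9 in MetE14/3 and 9.65 in WTE14/1, while MMH-D3 read 11.5 and 6.08. MetE14/3 was far above the other 3 arrays, all of which lay near or below the filter level of about 11.7, so no exact fold is given. The difference was 2.39 (SE 1.58), made up of 4.52 within the MetE14/3 pair and 0.25 within the WTE14/1 pair. Of the follistatin-like genes, Fstl1 was thus high in both RLSC lines and Fstl3 in 1 of them.

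**Figure D2:**
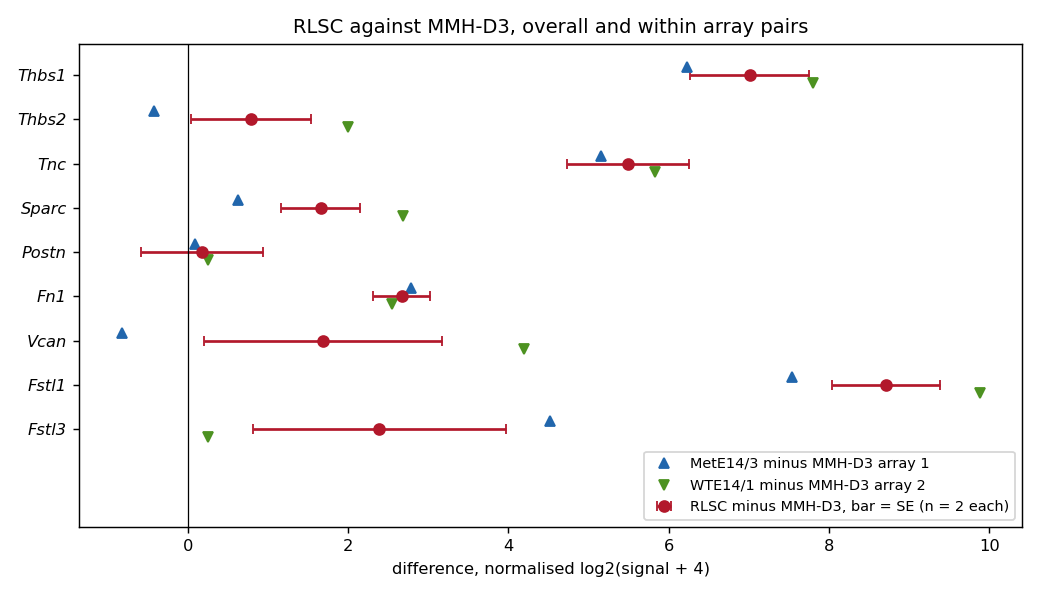
Difference in normalised log2(signal + 4), RLSC minus MMH-D3, for the 9 genes; circles are the difference of group means with its moderated SE (n = 2 each), and triangles the difference within each array pair. Both pairs are above 0 for 7 of the genes, with the pairs of Fstl3 far apart at 4.52 and 0.25, and the pairs of Thbs2 (-0.42 and 2.00) and Vcan (-0.82 and 4.20) differ in sign. All values are of the representative probe sets, and the other passing Vcan probe set did not give opposite signs.

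Leaving out 1 array leaves a group with 1 array, which is then assumed to vary like the other group, so the calls below describe how the fit behaves and do not show how firm a difference is. The members called higher were Fstl1, Thbs1, Tnc and Vcan without MetE14/3, and Fstl1 and Thbs1 without WTE14/1. With either MMH-D3 array left out no gene of the array passed limma's threshold, although 5 members without array 1 and 4 without array 2 had an unadjusted p under 0.05. With no filter Fstl1 alone was called, over 18193 genes. With no intensity trend Fstl1 and Thbs1 were called, and with the median of a gene's probe sets Fstl1, Thbs1 and Tnc.

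The RLSC lines were then set against each other, which with 1 array each allows no test. On the log2(signal + 4) scale, MetE14/3 minus WTE14/1, 7 of the 9 genes differed by less than 4-fold, 1 (Fstl3) was at least 4-fold higher in MetE14/3 and 1 (Vcan) in WTE14/1. Over all genes 2.79% were that much higher in MetE14/3 and 2.33% in WTE14/1. The MMH-D3 arrays were at least 4-fold apart at 5.96% of genes, among them Thbs1. The difference was 5.19 for Fstl3 and -4.92 for Vcan, against 0.92 and 0.09 between the MMH-D3 arrays. The other passing Vcan probe set gave -4.78 between the lines and -2.38, also over 4-fold, between the MMH-D3 arrays. Tnc (-1.83) and Fstl1 (-1.64) leaned to WTE14/1 by more than their MMH-D3 arrays differed (-1.17 and 0.70). For Thbs1 (0.55), Thbs2 (-0.92), Sparc (-0.78), Postn (1.21) and Fn1 (-0.43), the lines differed by less than the MMH-D3 arrays did (2.12, 1.49, 1.28, 1.36 and -0.66). These values are of the representative probe sets, and the other passing probe sets of Fn1 (-2.04 between the lines, 0.07 between the MMH-D3 arrays) and Thbs1 (1.06 and 0.46) gave the reverse, so for those genes the order of sizes depends on the probe set.

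**Figure D3:**
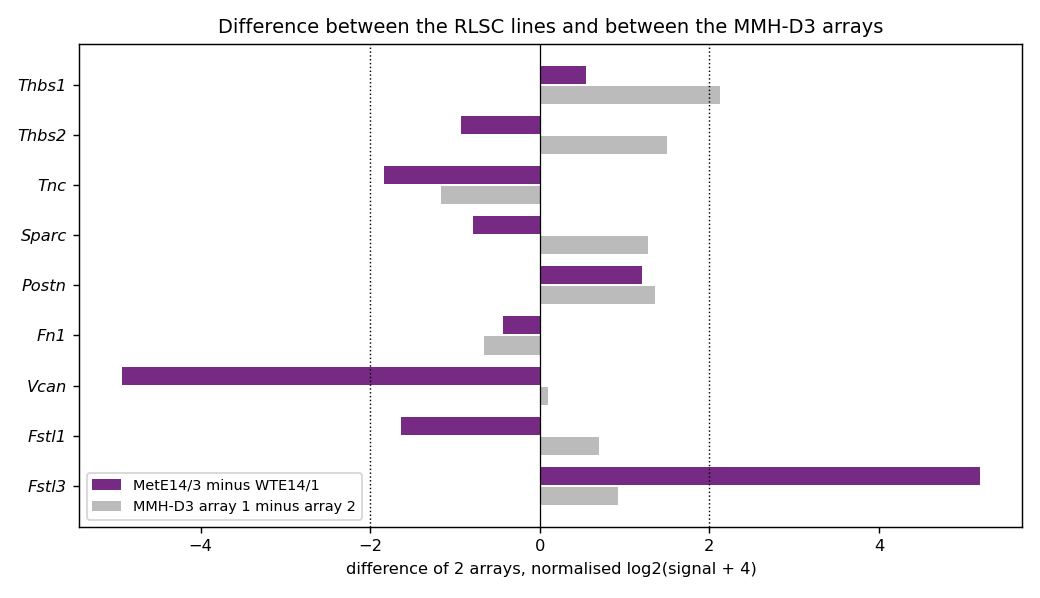
Difference between 2 arrays in normalised log2(signal + 4) for the 9 genes, MetE14/3 minus WTE14/1 in purple and MMH-D3 array 1 minus array 2 in grey; dotted lines mark 4-fold. Fstl3 (5.19) and Vcan (-4.92) pass 4-fold between the lines, in opposite directions, and Thbs1 passes it between the MMH-D3 arrays (2.12).

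Genes with the most similar profile were found by the Euclidean distance of the 4 normalised values after the gene mean was subtracted, a measure that over 4 arrays mostly reflects the difference between the groups. Closest to Thbs1 were Cryab (distance 0.62), Gxylt2 (1.35), Timp3 (1.39), Ak1 (1.54) and Mcam (1.62). Cryab, a small heat shock protein, read 1394 and 1621 in the RLSC lines and 15.6 and 2.68. Closest to Fstl1 were Myh10 (0.71), Cyba (0.99), Tagln (2.16), Cryab (2.18) and Timp3 (2.41). Myh10, a non-muscle myosin heavy chain, read 1337 and 2805 against 1.20 and 1.90. Cryab and Timp3, an inhibitor of matrix metalloproteases, were in both sets. The distance between Thbs1 and Fstl1 themselves was 2.51.

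Genes of the same pathways were taken from 6 lists that hold none of the members. Of 127 genes, 123 had a probe set named here and 94 passed the filter and were tested. Of these 94, 3 genes, Ccn3, Ccn4 and Has2, were higher in RLSC, and none was lower, while 33 had an unadjusted p under 0.05 in limma. Over all 12598 genes tested, 0.397% were called higher, 0.516% lower, and 1555 had an unadjusted p under 0.05 in limma. The counts given below for each list stand against that same background. In both RLSC lines 42 of the 94 lay above both MMH-D3 arrays and 16 below both, where all genes gave 20.8% and 21.3%. The median difference was 0.52 over the 94 genes and 0.03 over all genes. No related gene passed with either MMH-D3 array or WTE14/1 left out, where 26 had an unadjusted p under 0.05 in each case, and without MetE14/3 5 were higher and 1 lower, of the 3 only Ccn4 (limma adjusted p = 0.0405) and not Ccn3 (0.0808) or Has2 (0.0510). With no filter none of the 3 passed (limma adjusted p = 0.0518 for Ccn4, 0.0647 for Has2 and 0.0824 for Ccn3).

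Among 15 tested other matricellular genes the median was 1.08, and 6 had an unadjusted p under 0.05 in limma, the called genes included. Of the 15, 2 were called higher and none lower, and the other 13 did not pass. Both are CCN proteins, small secreted modulators that bind integrins and growth factors. Ccn4 read 916.8 and 777.4 in the RLSC lines, whereas MMH-D3 gave 30.8 and 33.5, and differed by 4.43 (SE 0.44, limma adjusted p = 0.0318). Ccn3 read 111.1 and 130.1 against 3.70 and 1.58 and differed by 4.08 (SE 0.56, limma adjusted p = 0.0400). Both MMH-D3 signals of Ccn3 lay below the filter level, so it passed the filter through its RLSC signals. The size of its difference depends on the added constant, and was 4.91 with 1 and 3.14 with 16 in place of 4. With the constant of 1 Ccn3 did not pass (limma adjusted p = 0.0524). In both Ccn4 and Ccn3, the RLSC lines lay close together and far from the MMH-D3 arrays. The better known YAP and TGF-beta targets Ccn1 and Ccn2, named here after their values were seen, did not pass. Ccn1 read 2630 and 2519 against 1022 and 288.9 (2.32, SE 0.60), and Ccn2 9595 and 10016 against 4314 and 5379 (1.10, SE 0.25). The SPARC-related Smoc1, also named after its values were seen, read 291.7 in MetE14/3 and 7.39 in WTE14/1, against 18 and 21.4.

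Of 9 tested hyaluronan and proteoglycan genes that partner versican, 1 was higher, none lower and 8 did not pass, with a median of 0.85. Of all 9, 3 had an unadjusted p under 0.05 in limma, the called gene included. Has2, which makes the hyaluronan that versican binds, read 420.1 in MetE14/3 and 249.8 in WTE14/1, against 7.20 and 9.53. It differed by 4.62 (SE 0.53, limma adjusted p = 0.0332), and by 5.02 and 4.22 within the pairs. Both MMH-D3 signals lay below the filter level, so Has2 passed the filter through its RLSC signals. The size of its difference depends on the added constant, and was 4.99 with 1 and 3.73 with 16 in place of 4. Unlike Vcan, Has2 was therefore raised in both RLSC lines; the difference between these patterns was not tested.

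None of 26 tested genes of the follistatin, activin and BMP axis passed (limma; 8 at an unadjusted p under 0.05, 5 higher and 3 lower), with a median of 0.53. The 2 with the highest mean were the BMP targets Id1 (0.31, SE 0.39) and Id2 (-1.89, SE 0.67). Id2 read 2511 and 585.3 in the RLSC lines and 4189 in MMH-D3 array 1, and 5144 in array 2. An activin subunit and the antagonist follistatin, named after their values were seen, lay above both MMH-D3 arrays without passing. Inhba, the activin A subunit, read 1651 and 2214 against 360.2 and 270.6 (2.62, SE 0.41, limma adjusted p = 0.0542). Follistatin (Fst) itself read 196.1 in MetE14/3 and 1469 in WTE14/1, against 46.8 and 14.3 (4.06, SE 1.08, limma adjusted p = 0.187). Fst was thus the higher in WTE14/1, the line in which Fstl3 was dim.

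None of 22 tested receptors passed (limma; 8 at an unadjusted p under 0.05, 2 higher and 6 lower), with a median of 0.36. Cd44, a receptor for hyaluronan and osteopontin, had signals of 2842 and 8035 against 3245 and 4543 (0.33, SE 0.50), and the groups overlapped. Sdc1, a heparan sulphate proteoglycan, read 3182 and 2097 against 4319 and 7629 (-1.05, SE 0.38). None of 11 genes of fibronectin and microfibril assembly passed (limma; 4 at an unadjusted p under 0.05, all 4 higher), with a median of 0.60. The highest in mean were Efemp1 (0.16, SE 0.32) and Ltbp3 (0.24, SE 0.38). Ltbp1, named after its values were seen, read 1885 and 1042 against 89.1 and 14.0 (5.05, SE 0.89, limma adjusted p = 0.0743). None of 11 TGF-beta ligands, receptors and early targets passed (limma; 4 at an unadjusted p under 0.05, 3 higher and 1 lower), with a median of 0.52. Of these, the target Pmepa1 differed by 0.14 (SE 0.34) and the receptor Tgfbr2 by 0.90 (SE 0.36), with 1489 and 2098 against 1019 and 958.4.

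**Figure D4:**
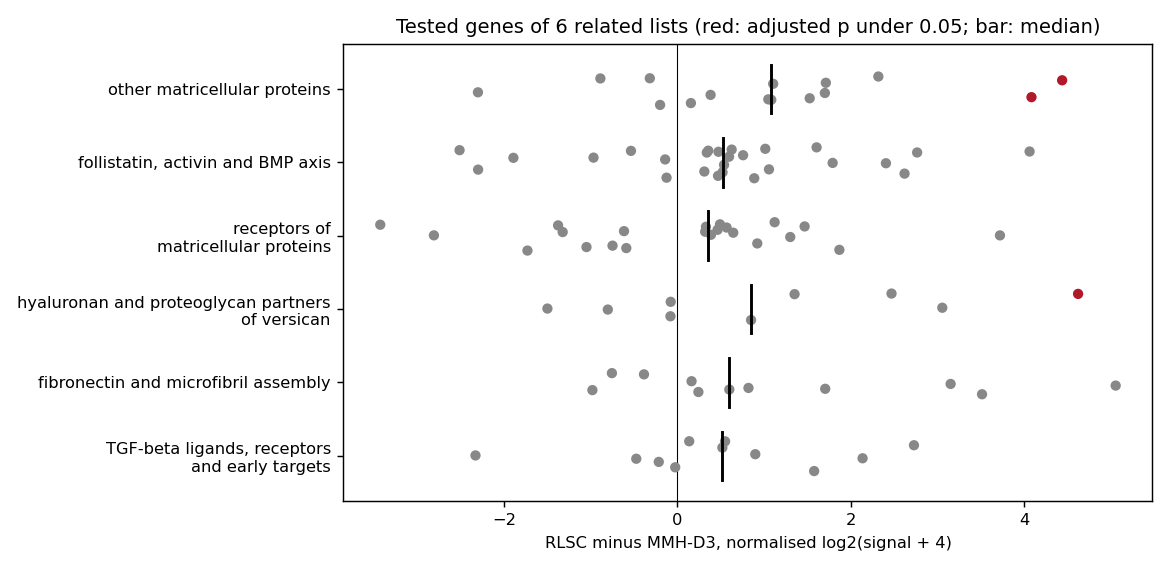
Difference in normalised log2(signal + 4), RLSC minus MMH-D3, for every tested gene of the 6 related lists, with vertical jitter only to separate points; red points passed an adjusted p under 0.05 in limma and the black bar is the list median. The red points are Ccn4 (4.43), Ccn3 (4.08) and Has2 (4.62), and the medians lie between 0.36 and 1.08.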

How the data were processed

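Signals of 4 arrays, 2 of RLSC lines and 2 of MMH-D3, were analysed. Each deposited value is a linear intensity, the signal of 1 probe set. The submitters' processing notes name GCOS, software for Affymetrix arrays, and the sources used here give neither its version nor its algorithm. Trimmed by 2% at each end, the mean signal of every array was 200.001, so each appears scaled by 1 factor. Medians were 16.9 to 28.0. The number of arrays limits the precision.

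Names came from the platform annotation, with 34754 of 34958 single-symbol probe sets matched by Entrez identifier to a RefSeq table. A further 932 probe sets with several symbols named no gene, and 64 controls were left out. Values entered as log2(signal + 4), and since array medians differed by 0.62, over the limit of 0.25, arrays were quantile normalised. The scale understates folds of dim genes. Probe sets whose mean fell under the 40th percentile were removed, and of a gene's probe sets the one highest in mean stood for it. The test of RLSC against MMH-D3 was two-sided, by limma 3.58.1 (lmFit, then eBayes with a trend in intensity; R 4.3.3), and p-values were adjusted by Benjamini-Hochberg over 12598 genes at 0.05. Residual degrees of freedom were 2 and prior ones 4.23. Its p-values reflect the spread between the arrays alone, which may be technical. The fit was tested on simulated data.

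The members, the lists and the tests were chosen with earlier results of these data known. All members are named. From each related list up to 3 passing genes were named, or the 2 with the highest mean, and for Thbs1 and Fstl1 the 5 nearest genes; other genes are marked as chosen after their values were seen. Alternatives changed the normalisation, the constant, the filter, the probe set rule, the trend, the array pair as a block and each array in turn.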

Additional observations from a re-analysis of the deposited data

Results flagged for a closer look

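A probe set annotated with both Pald1 and Thbs1 was left out of every comparison because it names 2 genes. Its signal was 5067.9 in MetE14/3 and 4358 in WTE14/1, above the 35.7 and 21.96 on the MMH-D3 arrays, a difference of 7.09 on the normalised log2(signal + 4) scale. The probe sets that name Thbs1 alone gave the same order of groups.

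In the representative probe set of Vcan the RLSC lines lay on opposite sides of both MMH-D3 arrays, with MetE14/3 minus WTE14/1 at -4.92. This difference was not tested, since each line has 1 array and line and array pair cannot be told apart. The MetE14/3 and MMH-D3 signals of that probe set (6.70, 12.4 and 15.5) lie near the filter level of about 11.7. In the other passing Vcan probe set MetE14/3 (4.90) lay between the MMH-D3 arrays (1.20 and 26.0).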

How the results depend on the processing

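No paired analysis by replicate number was possible because the labels number the MMH-D3 arrays only; the array pairs seen in the control signals were used as a block instead. Over all genes 50 were higher and 65 lower in RLSC, 351 were at least 4-fold higher in MetE14/3 and 293 in WTE14/1. With no filter the counts higher and lower were 4 and 5, with 1 member and 0 related genes called. With the 60th percentile filter 127 genes were at least 4-fold higher in WTE14/1, and 0 members in either line, since Fstl3 and Vcan were no longer tested. With a constant of 16 those line counts were 230 and 170 over all genes. Without quantile normalisation 5 related genes were higher in place of 3. With no intensity trend 2 members were called in place of 4. With the array pair as a block 101 genes were lower, and the same 4 members were called. Leaving out 1 array at a time gave 0 to 45 genes higher and 0 to 145 lower, 0 to 4 members called higher, 5 to 7 members above MMH-D3, 0 to 5 related genes higher and 0 to 1 lower. Over all genes and members the lows of 0 came without either MMH-D3 array, with 2175 genes at an unadjusted p under 0.05 in limma without array 1 and 991 without array 2; without WTE14/1 2 members were called and 8 genes were higher and 14 lower. The cause of these shifts was not tested.

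Of the values of the members under alternatives, 169 moved by less than the spread between arrays and 16 by more. The filter, trend and pair-block settings cannot change a member's difference, so their values were fixed in advance. The spread is each gene's own within the groups and includes the gap between the RLSC lines. Vcan, at -0.75 without WTE14/1, thus counts as within its spread, and the count does not measure stability. The values include constants of 1 and 16 with the probe set of each gene held, chosen after seeing the data, because a constant of 1 or leaving out an array can change which probe set stands for Thbs1 and Fstl1. Among RLSC minus MMH-D3 values, signs turned for Postn (-0.50 to 0.76), Thbs2 (-0.42 to 2.00) and Vcan (-0.82 to 4.20), and for no other member. The undecided genes changed sign in places. With the median of probe sets Ltbp3 was at -0.27 and Pmepa1 at -0.16. Leaving out 1 array gave -0.062 to 0.67 for Id1, -0.38 to 1.07 for Cd44, -0.10 to 0.44 for Efemp1, -0.16 to 0.64 for Ltbp3 and -0.14 to 0.41 for Pmepa1. Dim signals limit Thbs2, Postn and most Vcan probe sets, which say nothing about absence.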
